A study of Homo sapiens with 6 samples.

Results

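A set of 10 noncoding genes that carry small nucleolar RNAs (snoRNAs) in their introns was followed in human neuroblastoma cells, namely GAS5 and the small nucleolar RNA host genes SNHG1, SNHG3, SNHG5, SNHG6, SNHG7, SNHG8, SNHG12, SNHG15 and SNHG16. They were taken by name from the 67051 gene identifiers counted. The cells were SH-SY5Y, an established neuroblastoma line cloned from SK-N-SH, grown in high-glucose medium with serum in every group. One group was exposed to 0.1 mM MPP+ for 0.5 h, another to the same dose for 24 h, and the third was left untreated, with 2 libraries in each. The sample labels give no time for the untreated group, which serves both exposure times. Differences by exposure thus cannot be told apart from differences by time in culture. MPP+ is the toxic product of the parkinsonism-inducing compound MPTP and blocks respiratory complex I. Transcription was measured by PRO-seq, in which engaged RNA polymerases of isolated nuclei extend their transcripts with a biotin-labelled nucleotide and the labelled RNA is sequenced, so the values are of ongoing transcription and not of the stored RNA.

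SnoRNAs guide the chemical modification of other RNAs, chiefly ribosomal RNA. Those with C and D boxes direct methylation of the ribose, and those with H and ACA boxes direct the change of uridine to pseudouridine. In humans most of them are cut out of introns after splicing, so a single primary transcript of RNA polymerase II yields both a spliced host RNA and the snoRNAs. Many host genes share a start of the kind found on ribosomal protein genes, a C followed by a run of pyrimidines, known as a 5′ terminal oligopyrimidine tract. The spliced RNAs of GAS5 and several SNHG genes hold short open reading frames and are broken down by nonsense-mediated decay when they are translated, which is the known basis of the build-up of GAS5 RNA in cells that stop growing. A separate known property of GAS5 RNA is that it binds the DNA-binding domain of the glucocorticoid receptor. None of these later steps is read by PRO-seq.

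The annotated starts are shown first, since the choice of genes did not use them. Each line runs 5′ to 3′ from 40 bases before a RefSeq start through the first 30 bases of the transcript (RefSeq, GRCh38.p14). For SNHG12 that start lies inside the gene, whose upstream boundary is 28582983 in RefSeq and 28583132 in GENCODE 29. Capitals mark TATAA in the window from 40 to 21 bases before the start. At the start they mark an unbroken pyrimidine run that opens with C. The table of promoters used here matched 8 of the 10 genes, and SNHG6 and SNHG15 are named only.
SNHG5 (chr6:85678704-85678773, minus strand): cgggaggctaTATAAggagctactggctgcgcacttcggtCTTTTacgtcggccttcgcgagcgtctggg
SNHG7 (chr9:136728155-136728224, minus strand): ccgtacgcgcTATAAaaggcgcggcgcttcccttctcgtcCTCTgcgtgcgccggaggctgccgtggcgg
SNHG12 (chr1:28581844-28581913, minus strand): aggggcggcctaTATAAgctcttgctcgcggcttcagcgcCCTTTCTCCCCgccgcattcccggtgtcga
SNHG8 (chr4:118278722-118278791, plus strand): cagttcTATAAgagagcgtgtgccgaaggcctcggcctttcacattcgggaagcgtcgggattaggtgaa
GAS5 (chr1:173869016-173869085, minus strand): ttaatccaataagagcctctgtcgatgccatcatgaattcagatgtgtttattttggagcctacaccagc
SNHG1 (chr11:62855856-62855925, minus strand): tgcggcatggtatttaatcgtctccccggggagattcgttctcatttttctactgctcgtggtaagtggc
SNHG16 (chr17:76557724-76557793, plus strand): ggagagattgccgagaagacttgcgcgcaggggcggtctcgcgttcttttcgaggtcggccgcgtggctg
SNHG3 (chr1:28505903-28505972, plus strand): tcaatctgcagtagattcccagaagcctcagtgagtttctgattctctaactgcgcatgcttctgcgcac

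TATAA, the core of the TATA box, began 30 bases before the start in SNHG5 and SNHG7, 28 bases before it in SNHG12 and 34 bases before it in SNHG8. It was therefore present in 4 of the 8 host windows, against 3.77% of 35116 RefSeq promoters. A C followed by at least 3 pyrimidines lay at the annotated start of 3 of the 8 hosts, SNHG5, SNHG7 and SNHG12, against 5.45% of all promoters, and the run was 5, 4 and 11 bases long. Those 3 hosts held both features, which occurred together in 46 of the 35116 promoters, or 0.131%. Both were read on the transcript's strand only. Over the whole promoter window of 250 bases before and 50 after the start, searched on both strands, the E box CACGTG was found in SNHG7 alone of the 8 hosts (7.26% of all promoters), and the GC box GGGCGG in 6 of 8 (45%). CCGGAAG, an ETS-type motif, was in 0 of 8 (10.3% of all promoters). These are matches of letters and show no binding, and the windows rest on RefSeq starts, which for some hosts differ from those of GENCODE. For GAS5 the RefSeq start is 173869045 and the GENCODE 29 start is 173868882, outside the printed window. A pyrimidine run was counted only at the exact RefSeq start, so a run at another start, or a few bases away, was missed. The hosts without a counted run are thus not shown to lack one.

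The snoRNAs inside the hosts are what the genes are named for. RefSeq places 36 snoRNAs within the 10 genes, 11 of them in GAS5, 9 in SNHG1, 4 in SNHG12, 3 in SNHG16, 2 each in SNHG3, SNHG5 and SNHG7, and 1 each in SNHG6, SNHG8 and SNHG15. A few are shown, from the GENCODE 29 transcripts (GRCh38), because their boxes tell the 2 classes apart and because their rows bear on what the host counts hold. Capitals mark the C box and the D box in the SNORD sequences and the ACA box in SNORA9.
SNORD25 of SNHG1 (chr11:62855564-62855632, minus strand): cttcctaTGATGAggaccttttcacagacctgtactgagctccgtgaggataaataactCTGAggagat
SNORD27 of SNHG1 (chr11:62855012-62855083, minus strand): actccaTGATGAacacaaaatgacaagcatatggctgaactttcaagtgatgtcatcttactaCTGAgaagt
SNORD50B of SNHG5 (chr6:85677589-85677658, minus strand): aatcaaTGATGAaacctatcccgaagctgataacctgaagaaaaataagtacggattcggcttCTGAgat
SNORD1B of SNHG16 (chr17:76561109-76561192, plus strand): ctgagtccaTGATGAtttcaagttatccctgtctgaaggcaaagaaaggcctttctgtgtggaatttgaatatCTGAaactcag
SNORA9 of SNHG15 (chr7:44985378-44985510, minus strand): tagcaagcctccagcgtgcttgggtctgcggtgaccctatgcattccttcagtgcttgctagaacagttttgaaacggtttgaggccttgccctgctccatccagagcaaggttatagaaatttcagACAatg

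In the counts, the snoRNA rows that GENCODE 29 places inside the hosts were empty. Of the counted identifiers, 25 are snoRNAs that GENCODE 29 places in a host on its strand, in 9 of the 10 hosts (GAS5 is the other one). All 25 held 0 counts in all 6 libraries, SNORD25, SNORD27, SNORD50B, SNORD1B and SNORA9 among them. Hosted snoRNAs outside these 25, such as those that RefSeq places in GAS5, are not covered by this count. A library with 0 counts on a gene allows up to 3 counts, which is 0.256 to 0.501 CPM at these depths (CPM is a count scaled to the library's size), covering counting error only. The same was seen for snoRNA genes at large. Of 606 snoRNA genes that lie wholly within another gene on the same strand, 606 (100%) were at 0 in every library, and of 156 that lie within a gene on the opposite strand only, 155 (99.4%) were. Of 229 that lie within no other gene, 127 (55.5%) were at 0. Long genes behaved alike: 513 of 524 protein-coding genes within another gene on the same strand were at 0 (97.9%) and 1022 of 1027 within one on the opposite strand only (99.5%), against 1005 of 18321 within no other gene (5.49%). A gene that lies within another on either strand was thus rarely given a count, so the rows of hosted snoRNAs at 0 are no measure of snoRNA transcription, and a host's count may leave out the part of its span that other genes share. How the counting treated overlaps is not given in the sources used here.

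**Figure D1:**
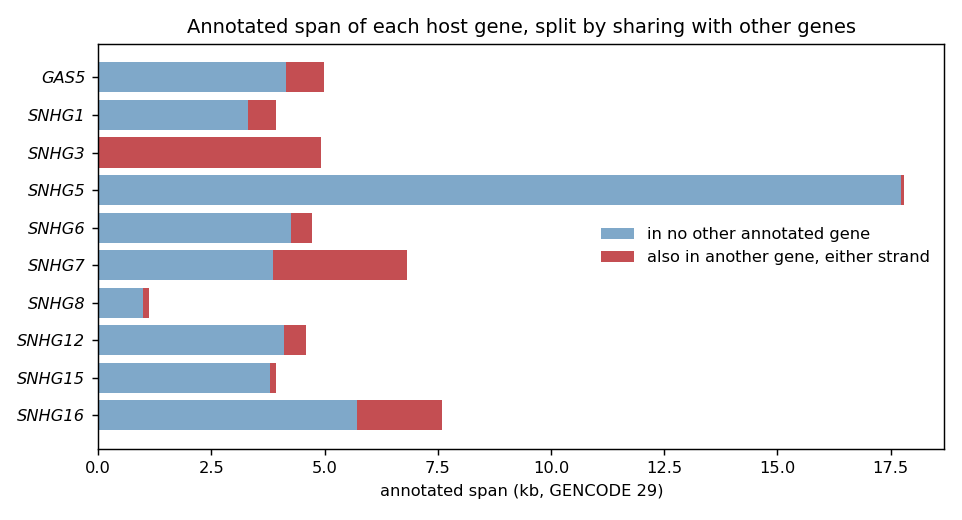
Annotated span of the 10 host genes in kilobases (GENCODE 29), split into bases that lie in no other annotated gene (blue) and bases that also lie in another gene on either strand (red). SNHG3 is shared over all of its 4913 bases, SNHG7 over 43.3% and SNHG5 over 0.393%.

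The shared part differed widely between hosts. SNHG3 (ENSG00000242125.3, chromosome 1, 28505980 to 28510892, plus strand, GRCh38), the host of SNORA73A and SNORA73B, lies wholly within RCC1, which encodes the exchange factor of the GTPase Ran, is read in the same direction and starts 37 bases away. SNHG3 had 0 counts in all 6 libraries and is not described further, since its transcription cannot be told apart from that of RCC1 in these files. GAS5 shares 843 of its 4983 bases (16.9%), including all of its first 500 bases, with the oppositely read ZBTB37, a zinc finger gene, and with GAS5-AS1. SNHG7 shares 2954 of 6819 bases (43.3%), chiefly with the oppositely read DIPK1B, and SNHG16 1873 of 7583 (24.7%). For SNHG1, SNHG8, SNHG12 and SNHG6 the shared part was 15.6%, 11.7%, 10.5% and 9.63%, and for SNHG15 and SNHG5 it was 3.38% and 0.393%. The identifiers of several hosts carry a later version than in GENCODE 29, so the boundaries used in the counting may differ from these.

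The libraries held 7044839 and 8381006 assigned counts in untreated cells, 11707612 and 8714604 at 0.5 h, and 8573601 and 5983066 at 24 h. Of 7 adrenergic neuroblast markers, 6 were detected at 91.5 CPM or more in every library, among them PHOX2A, GATA3 and DBH, whereas TH reached at most 1.62 CPM. Their summed level was 2413 to 2889 CPM at 0.5 h and 2169 to 2791 CPM at 24 h, against 2509 to 3000 CPM in untreated cells. None of the 6 passed by group alone. In a fit with the replicate number as a block, which compares libraries of the same number, 2.96% of all tested genes passed at 24 h. There ISL1, GATA3 and GATA2 were lower at 24 h than in untreated cells, with log2 fold changes of -0.31, -0.23 and -0.24 (edgeR adjusted p = 0.0125, 0.0223 and 0.0487). In 24 h against 0.5 h ISL1 was also lower with the block (-0.40, edgeR adjusted p = 0.00388), where 1.78% of all tested genes passed. The part of these marker genes in the results below was not tested. Of 11 markers of other cell types, KRT18 had at most 1 count in a library and EPCAM lay between 126 and 175 CPM, and their sums were 198 to 225 CPM at 0.5 h and 182 to 201 CPM at 24 h, against 186 to 203 CPM in untreated cells. The 13 mRNAs encoded on the mitochondrial genome summed to 201 and 266 CPM at 0.5 h and to 260 and 214 CPM at 24 h. In untreated cells the sums were 1023 and 1091 CPM. By group alone 13 of 13 were lower by edgeR at 0.5 h and 12 of 13 at 24 h. With the replicate block 13 of 13 were lower at 24 h. The cause of this difference was not tested. Nothing in the labels ties the 2 libraries to different cultures, and the p-values below may thus rest on technical spread. Values are relative to each library's total, and less transcription per cell cannot be told apart from fewer transcribing cells.

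The 9 measurable hosts were among the densely transcribed genes of these cells. Over the whole annotated span, and averaged over the 6 libraries, they had 9.83 to 72.8 CPM per kb, against a median of 0.767 CPM per kb over 22341 tested genes with a GENCODE 29 span. SNHG8, GAS5, SNHG1 and SNHG12 had 72.8, 66.1, 54.2 and 45.1 CPM per kb, which put them at the 99.4, 99.3, 99.2 and 99.1 percentiles. The lowest, SNHG6, was at the 95.5 percentile. The percentiles describe density averaged over a whole span, so the length of each gene enters them. The density of SNHG5, 15.1 CPM per kb, was spread over a GENCODE span of 17799 bases, while RefSeq draws the gene from 85677007 to 85678733 on chromosome 6, so its place in the order depends on the annotation.

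With counts divided by the unshared bases only, the order of the hosts in untreated cells was led by SNHG8 (83 ± 3.99 CPM per kb, SD, n = 2), the host of SNORA24. GAS5 (71.4 ± 1.68) and SNHG1 (71.4 ± 26.4) came next and could not be ordered against each other, as the libraries of SNHG1 lay on both sides of those of GAS5. The gap from SNHG1 to SNHG12 (45.7 ± 1.74) was smaller than the SD of SNHG1. SNHG12 and SNHG7 (42.9 ± 4.11 CPM per kb) overlapped, and so did SNHG16 (18.8 ± 2.7) and SNHG5 (16.6 ± 3.89). SNHG15 stood between those pairs at 30.2 ± 1.57, and SNHG6 was lowest at 10.5 ± 1.04 CPM per kb. After 0.5 h the order was the same, and SNHG8 and GAS5 then overlapped, at 87 ± 10.9 and 82.9 ± 1.91 CPM per kb. After 24 h GAS5 (84.3 ± 5.02) stood ahead of SNHG8 (77.4 ± 9.58) and SNHG7 (48.5 ± 3.97) ahead of SNHG12 (48.1 ± 4.86 CPM per kb), each by less than the spread between libraries. The unshared bases are not the same part of each gene. Of the first 500 bases, 500 are shared in GAS5, 69 in SNHG1 and 19 in SNHG8. The order may thus compare unlike parts of these genes.

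**Figure D2:**
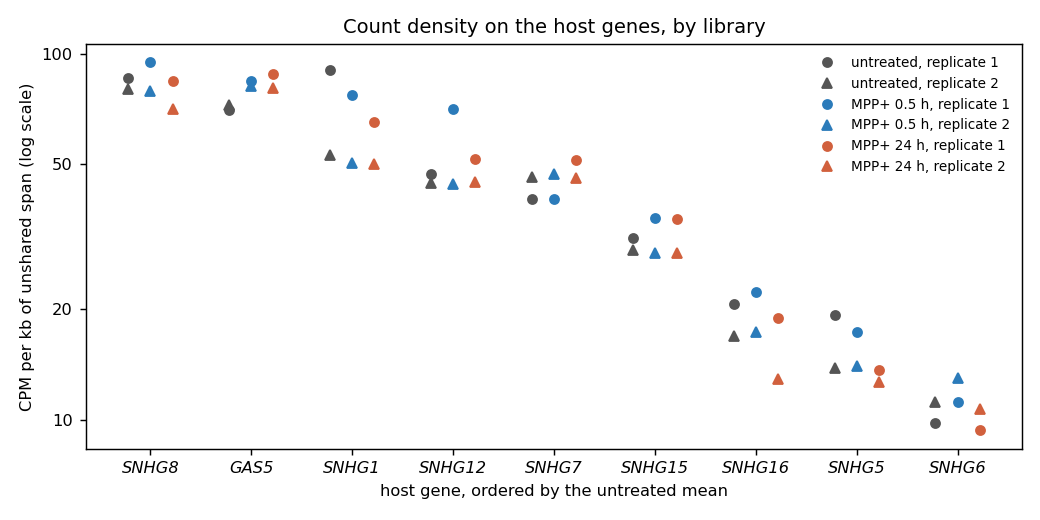
CPM per kilobase of unshared span (log axis) of the 9 measurable hosts in each of the 6 libraries, ordered by the untreated mean (grey untreated, blue 0.5 h, orange 24 h; circle replicate 1, triangle replicate 2). SNHG8, GAS5 and SNHG1 lie highest, and SNHG6, between 9.34 and 13 CPM per kb, lies lowest.

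The comparisons asked whether host gene transcription differed after MPP+. By group alone no host passed the test in any comparison, and with the replicate number as a block SNHG5 passed at 24 h and SNHG16 in 24 h against 0.5 h, both lower at 24 h. After 0.5 h of MPP+, 0 of the 9 tested hosts passed in edgeR's quasi-likelihood test (adjusted p under 0.05), against 17 of 23133 genes over all (0.0735%). After 24 h, 0 of 9 passed, against 16 of 23133 (0.0692%), and in 24 h against 0.5 h the count was 0 of 9, against 0 of 23133 (0%). With the genes of the mitochondrial genome left out, 0 of 23100 genes passed in each of the 3 comparisons. At an unadjusted p under 0.05 the count of hosts was also 0 in each of the 3 comparisons, where 2.46%, 8.1% and 6.42% of all tested genes stood, and DESeq2 passed 0 of 9 in each, with 0 at an unadjusted p under 0.05. With the block, edgeR passed 0 of 9 hosts at 0.5 h, against 57 of 23133 genes (0.246%), 1 of 9 at 24 h, against 685 (2.96%), and 1 of 9 in 24 h against 0.5 h, against 412 (1.78%). At an unadjusted p under 0.05 with the block stood 2, 5 and 4 of the 9 hosts, against 7.67%, 16.8% and 15.5% of all tested genes. The authors' deposited tables of differential genes, with 17 genes for 0.5 h and 24 for 24 h, list 0 of the 10 hosts. The fitted log2 fold changes ran from -0.16 to 0.33 after 0.5 h (median 0.082, against 0.0082 over all genes) and from -0.33 to 0.24 after 24 h (median -0.072, against 0.0023). In 24 h against 0.5 h they ran from -0.31 to 0.16, with a median of -0.17 against 0.0029 over all genes, and 7 of 9 lay below 0, where 49.5% of all tested genes did. The 3 comparisons share libraries. The hosts' 95% intervals reached from -0.75 to 0.76 at 0.5 h and from -0.90 to 0.51 at 24 h, so in that fit, with 2 libraries a group, a host could have differed by as much as those bounds without being told apart from 0.

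**Figure D3:**
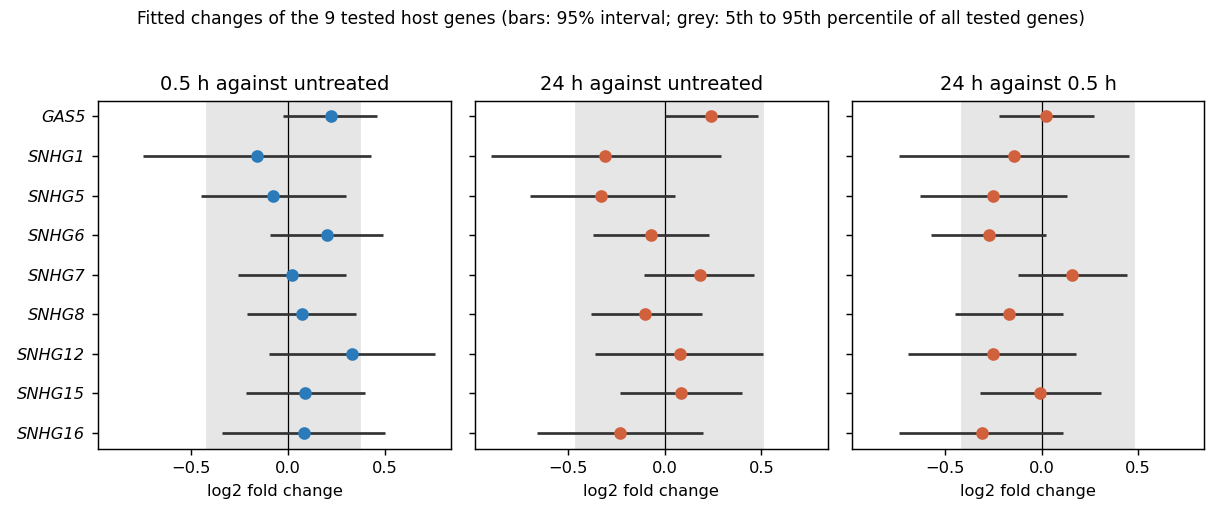
Fitted log2 fold change of each of the 9 tested hosts with its 95% interval (edgeR, by group alone), for each exposure time against untreated cells and for the later against the earlier time. The grey band spans the 5th to 95th percentile of all tested genes. Every interval includes 0, and the widest is that of SNHG1.

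GAS5, a host chiefly of C/D box snoRNAs, had the smallest p of the hosts at both times in the fit by group alone, without passing the test. GAS5 (ENSG00000234741.8, chromosome 1, 173863900 to 173868882, minus strand) had 291 and 300 CPM in untreated cells, 349 and 338 CPM at 0.5 h and 364 and 334 CPM at 24 h. All 4 MPP+ libraries lay above both untreated ones. The groups did not overlap in the higher direction for 12.9% of all tested genes at 0.5 h and for 18.8% at 24 h, so either separation alone is a common one. The share of genes with both at once was not counted. The log2 fold change was 0.22 ± 0.11 (SE, 95% interval -0.026 to 0.46) at 0.5 h, with an adjusted p = 1 in edgeR. At 24 h it was 0.24 ± 0.11 (-0.0015 to 0.48), with an adjusted p = 0.619. Both comparisons use the same untreated libraries. Between 24 h and 0.5 h the libraries of GAS5 overlapped (0.025 ± 0.11, adjusted p = 0.981). ZBTB37, whose start lies 800 bases from that of GAS5 on the other strand, had 35.5 and 42 CPM in untreated cells, 32.8 and 41.2 CPM at 0.5 h and 30.6 and 40.1 CPM at 24 h. Its groups overlapped in each comparison, with log2 fold changes of -0.073 ± 0.17 at 0.5 h and -0.14 ± 0.17 at 24 h (adjusted p = 1 and 0.886).

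SNHG1, whose introns hold SNORD22 and the SNORD25 to SNORD31 cluster, was the most variable host. SNHG1 (ENSG00000255717.7, chromosome 11, 62851988 to 62855914, minus strand) had 299 and 175 CPM in untreated cells, 256 and 166 CPM at 0.5 h and 216 and 166 CPM at 24 h. In each group replicate 1 was the higher library, and the groups overlapped. The log2 fold change was -0.16 ± 0.26 at 0.5 h and -0.31 ± 0.26 at 24 h (adjusted p = 1 and 0.823), and without untreated replicate 1 they were 0.27 and 0.13, of the opposite sign. SLC3A2, which encodes the heavy chain of amino acid transporters and starts 188 bases from SNHG1 on the other strand, had 146 and 125 CPM in untreated cells, 150 and 135 CPM at 0.5 h and 115 and 115 CPM at 24 h. Its 24 h libraries lay below all the others, with a log2 fold change of -0.24 ± 0.11 against untreated (edgeR adjusted p = 0.64) and -0.32 ± 0.11 against 0.5 h (adjusted p = 0.754). Of all tested genes, 18.5% had 24 h libraries below both untreated ones and 19% below both 0.5 h ones.

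SNHG5, the host of SNORD50A and SNORD50B, had the lowest fitted value at 24 h, and its call depended on the replicate block. SNHG5 (ENSG00000203875.13, chromosome 6, 85660950 to 85678748, minus strand) had 342 and 245 CPM in untreated cells, 308 and 249 CPM at 0.5 h and 243 and 225 CPM at 24 h. The 24 h libraries lay below the other 4, the nearest pair being 243 CPM at 24 h and 245 CPM in untreated cells. The log2 fold change at 24 h was -0.33 ± 0.17 (95% interval -0.70 to 0.053, adjusted p = 0.675), and 18.5% of all tested genes had groups that did not overlap in the lower direction. With the replicate number as a block it was -0.31 and passed (edgeR adjusted p = 0.0266), whereas over the 12 other alternatives the adjusted p lay between 0.302 and 1. Without untreated replicate 1 the 24 h value was -0.066, and without untreated replicate 2 it was -0.56. At 0.5 h the log2 fold change of SNHG5 was -0.076 ± 0.17 (adjusted p = 1), with overlapping groups. In 24 h against 0.5 h it was -0.25 ± 0.17 (adjusted p = 0.82), and it was -0.088 without replicate 1 at 0.5 h and -0.39 without replicate 2 at 0.5 h.

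SNHG16 and SNHG6 carry C/D box snoRNAs only, by the RefSeq annotation. SNHG16 (ENSG00000163597.15, chromosome 17, 76557766 to 76565348, plus strand), with SNORD1A, SNORD1B and SNORD1C, had 118 and 96.6 CPM in untreated cells, 127 and 99.6 CPM at 0.5 h and 108 and 73.7 CPM at 24 h. The groups overlapped in all 3 comparisons, with log2 fold changes of 0.082 ± 0.19 at 0.5 h and -0.23 ± 0.19 at 24 h (adjusted p = 1 and 0.809). In 24 h against 0.5 h the log2 fold change of SNHG16 was -0.31 ± 0.19 (adjusted p = 0.798), the lowest of the hosts. With the replicate number as a block it was -0.32 and passed (edgeR adjusted p = 0.0465), whereas over the 12 other alternatives the adjusted p lay between 0.476 and 1. Replicate 2 at 24 h was the lowest of the 6 libraries, and without it the value was -0.066 against 0.5 h and 0.012 against untreated cells. Without replicate 1 at 24 h those values were -0.63 and -0.54. The antisense gene ENSG00000267546, which starts 83 bases away on the other strand, had 14.7 and 23.1 CPM in untreated cells, 18 and 27.2 CPM at 0.5 h and 18.5 and 24.3 CPM at 24 h, also overlapping. SNHG6 (ENSG00000245910.8), with SNORD87, had 41.6 and 47.8 CPM in untreated cells, 47.8 and 55.3 CPM at 0.5 h and 39.8 and 45.6 CPM at 24 h. The 24 h libraries of SNHG6 lay below both 0.5 h libraries, with a log2 fold change of -0.27 ± 0.13 (adjusted p = 0.769), an order that 19% of all tested genes shared. Against untreated cells the log2 fold change of SNHG6 was 0.20 ± 0.13 at 0.5 h and -0.072 ± 0.13 at 24 h (adjusted p = 1 and 0.928), with overlapping groups.

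SNHG12, SNHG7, SNHG8 and SNHG15, whose annotated snoRNAs are wholly or chiefly of the H/ACA class, had overlapping groups in each of the 3 comparisons. SNHG12 (ENSG00000197989.14, chromosome 1, 28578538 to 28583132, minus strand), with SNORA16A, SNORA44 and SNORA61 and the C/D box SNORD99, had 193 and 183 CPM in untreated cells, 291 and 181 CPM at 0.5 h and 212 and 184 CPM at 24 h. Replicate 1 at 0.5 h stood above the other 5 libraries, and with it the log2 fold change was 0.33 ± 0.19 (adjusted p = 1), without it -0.052. At 24 h the log2 fold change of SNHG12 was 0.077 ± 0.19 (adjusted p = 0.952). SNHG7 (ENSG00000233016.7, chromosome 9, 136721366 to 136728184, minus strand), with SNORA17A and SNORA17B, had 155 and 177 CPM in untreated cells, 155 and 181 CPM at 0.5 h and 198 and 177 CPM at 24 h. Its log2 fold changes were 0.019 ± 0.12 at 0.5 h and 0.18 ± 0.12 at 24 h (adjusted p = 1 and 0.767).

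SNHG8 and SNHG15 each carry a single H/ACA box snoRNA. SNHG8 (ENSG00000269893.8, chromosome 4, 118278709 to 118279823, plus strand), with SNORA24, had 84.4 and 78.9 CPM in untreated cells, 93.2 and 78.1 CPM at 0.5 h and 82.8 and 69.5 CPM at 24 h. Its log2 fold changes against untreated cells were 0.071 ± 0.12 at 0.5 h and -0.10 ± 0.13 at 24 h (adjusted p = 1 and 0.895). SNHG15 (ENSG00000232956.9, chromosome 7, 44983023 to 44986961, minus strand), with SNORA9, had 119 and 111 CPM in untreated cells, 135 and 109 CPM at 0.5 h and 135 and 109 CPM at 24 h. Its log2 fold changes were 0.090 ± 0.14 at 0.5 h and 0.083 ± 0.14 at 24 h (adjusted p = 1 and 0.917). The 95% intervals of SNHG15 reached from -0.22 to 0.40 at 0.5 h and from -0.23 to 0.40 at 24 h, and so included a level up to 1.32-fold higher at both times. RCC1, the gene that covers SNHG3 and holds the same snoRNAs, had 300 and 267 CPM in untreated cells, 285 and 276 CPM at 0.5 h and 278 and 249 CPM at 24 h, with log2 fold changes of -0.017 ± 0.11 at 0.5 h and -0.11 ± 0.11 at 24 h (adjusted p = 1 and 0.867).

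**Figure D4:**
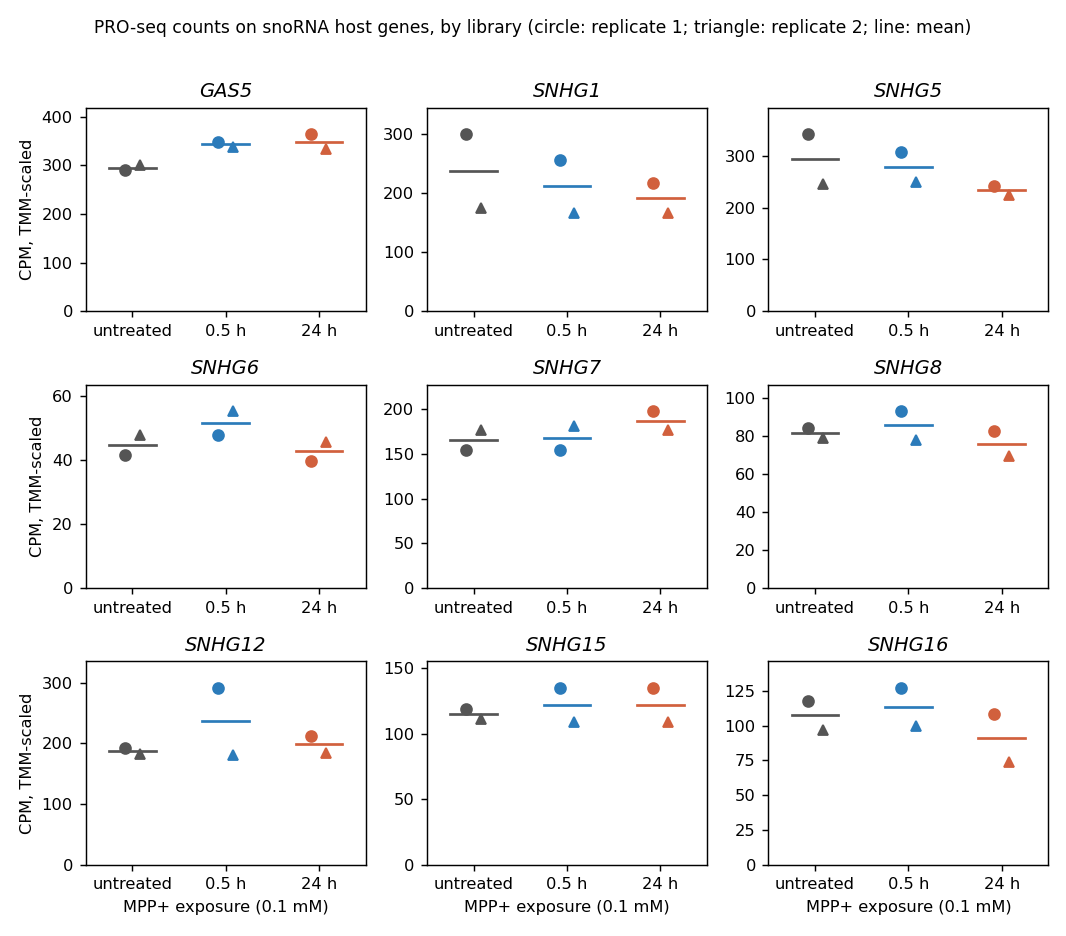
TMM-scaled CPM of the 9 measurable hosts in each library, by exposure (axes start at 0; circle replicate 1, triangle replicate 2, line the mean of 2). GAS5 lies higher in the 4 MPP+ libraries (334 to 364 CPM) than in the untreated ones (291 and 300 CPM), and SNHG1 spreads from 166 to 299 CPM.

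The share of all counts that fell on the hosts differed less between groups than between the libraries of a group. The 10 hosts together took 0.158% ± 0.018 of the assigned counts at 0.5 h and 0.150% ± 0.0106 at 24 h, against 0.153% ± 0.0124 in untreated cells (SD, n = 2 each). Per library the share was 0.1615% (exact Clopper-Pearson 95% interval 0.1586% to 0.1645%) and 0.1439% (0.1414% to 0.1465%) in untreated cells. It was 0.1709% (0.1685% to 0.1733%) and 0.1455% (0.1429% to 0.148%) at 0.5 h and 0.1574% (0.1547% to 0.1601%) and 0.1425% (0.1395% to 0.1455%) at 24 h. The intervals cover counting error only, and the difference in share was not tested.

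The hosts differed among themselves in their course over the 6 libraries. After centring each gene's log2 CPM on its own mean, the root mean square difference of a host from the mean of the 9 was 0.031 for SNHG8 and 0.069 for SNHG15, 0.14 to 0.16 for GAS5, SNHG5, SNHG16 and SNHG12, 0.21 for SNHG6 and SNHG7 and 0.24 for SNHG1. The mean course spanned 0.36 log2 units from its lowest to its highest library. Outside the hosts, the closest of 14624 genes with at least 10 CPM were JPT2, ANKRD44, LIMS1, ENSG00000288088 and MAML3, with differences of 0.016 to 0.024, and 1696 genes lay within 0.1. The closest to GAS5 were FBXL19-AS1, HSPA4L, ADA, ENSG00000258344 and MTSS1, at 0.017 to 0.031, with 1024 genes within 0.1. Over 6 libraries so many genes lie this near that the names only describe likeness.

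Other noncoding snoRNA hosts were set beside these, from a list of 23 genes, of which 14 were tested and 4 (SNHG4, SNHG22, SNHG28 and EPB41L4A-AS1) were at 0 in all libraries. Whether other genes overlap these 4 is not shown here, so their empty rows are not read as a lack of transcription. In each of the 3 comparisons 0 of the 14 passed in edgeR and in DESeq2. At an unadjusted edgeR p under 0.05 stood 2 of them at 0.5 h and 2 at 24 h, all higher than in untreated cells, and 1 in 24 h against 0.5 h, lower at 24 h. Of all tested genes 2.46%, 8.1% and 6.42% stood there in these comparisons. The median log2 fold change of the 14 was 0.089 at 0.5 h and -0.054 at 24 h, against 0.0082 and 0.0023 over all genes, and -0.12 in 24 h against 0.5 h, against 0.0029. With the replicate block 1 of the 14 passed, SNHG20 at 24 h, where 2.96% of all tested genes passed. Groups that did not overlap in the higher direction were seen for 12.9% of all tested genes at 0.5 h and 18.8% at 24 h. SNHG20 had 20.6 and 21 CPM in untreated cells, 29.7 and 24.7 CPM at 0.5 h and 31.7 and 29.2 CPM at 24 h, and all 4 MPP+ libraries lay above both untreated ones. Its log2 fold change was 0.39 ± 0.15 at 0.5 h (adjusted p = 1) and 0.55 ± 0.15 at 24 h (adjusted p = 0.522), and with the block it was 0.54 at 24 h (adjusted p = 0.0294). SNHG9, which carries SNORA78, had 17.9 and 15.6 CPM in untreated cells, 25.6 and 21.3 CPM at 0.5 h and 27.7 and 20.3 CPM at 24 h. Its groups did not overlap either, with log2 fold changes of 0.49 ± 0.19 at 0.5 h (adjusted p = 1) and 0.53 ± 0.20 at 24 h (adjusted p = 0.595). SNHG19 and SNHG29 followed by p at 24 h, with values of -0.31 and -0.17 (adjusted p = 0.768 and 0.795).

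Of 35 protein-coding snoRNA hosts, 32 were tested, and 0 passed in any comparison in edgeR and in DESeq2. At an unadjusted edgeR p under 0.05 stood 0 at 0.5 h, 1 at 24 h and 2 between the exposure times. Of all tested genes 2.46%, 8.1% and 6.42% stood there. At 0.5 h, 24 of the 32 had a fitted value above 0 (52.1% of all tested genes did) with a median log2 fold change of 0.069, and at 24 h 22 had one below 0 (49.6% of all) with a median of -0.056. In 24 h against 0.5 h, 27 of the 32 lay below 0 (49.5% of all) with a median of -0.15, and in 16 of them the 24 h libraries lay below both 0.5 h libraries, as they did for 19% of all tested genes. With the replicate block 0 passed at 0.5 h, 3 at 24 h (EIF4G2, EEF2 and TBRG4) and 2 in 24 h against 0.5 h (TBRG4 and RACK1), all lower at 24 h. Of all tested genes 0.246%, 2.96% and 1.78% passed with it. TBRG4, a regulator of mitochondrial RNA, had the smallest p of this list at 24 h, with 117 and 110 CPM in untreated cells, 127 and 119 CPM at 0.5 h and 96.1 and 90.2 CPM at 24 h. Its log2 fold change at 24 h was -0.29 (adjusted p = 0.574, and 0.0475 with the block), and against 0.5 h it was -0.40 with the block (adjusted p = 0.00892). TNPO2, an importin, TAF1D, of the polymerase I initiation factor, and DKC1, the pseudouridine synthase of H/ACA particles, had values of -0.21, -0.28 and -0.31 at 24 h (adjusted p = 0.645, 0.663 and 0.667). RACK1, EEF2, EEF1B2, DKC1 and NOP56 are each in this list and in a list given below, so the lists are not independent.

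Translation genes whose mRNAs begin with a terminal oligopyrimidine tract are the textbook class with the start that many hosts share. Of 18 such genes 16 were tested and 0 passed in any comparison in edgeR and in DESeq2. At an unadjusted edgeR p under 0.05 stood 1, 1 and 2 in the same order of comparisons (2.46%, 8.1% and 6.42% of all tested genes). The median log2 fold change was 0.049 at 0.5 h, -0.12 at 24 h and -0.16 in 24 h against 0.5 h. In that last comparison 15 of the 16 lay below 0, against 49.5% of all tested genes. With the replicate block 0 passed at 0.5 h, 2 at 24 h (EIF4B and EEF2) and 3 in 24 h against 0.5 h (EIF4B, NPM1 and RACK1), all lower at 24 h. Of all tested genes 0.246%, 2.96% and 1.78% passed with it. EIF4B, an initiation factor that aids the helicase eIF4A, had 43.6 and 38.7 CPM in untreated cells, 46.9 and 43.3 CPM at 0.5 h and 29.9 and 29.4 CPM at 24 h. Its 24 h libraries lay below all the others, with a log2 fold change of -0.47 against untreated cells (edgeR adjusted p = 0.504, and 0.0284 with the block) and -0.61 against 0.5 h (adjusted p = 0.754, and 0.00865 with the block). Of all tested genes, 18.5% had 24 h libraries below both untreated ones and 19% below both 0.5 h ones. EEF2, RACK1 and NACA had values of -0.27, -0.18 and -0.47 at 24 h (adjusted p = 0.669, 0.75 and 0.783).

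Of the 8 core proteins of snoRNA particles, all tested, 0 passed in any comparison in edgeR and in DESeq2, and 0 stood at an unadjusted p under 0.05. Their median log2 fold change was 0.044 at 0.5 h, -0.11 at 24 h and -0.18 in 24 h against 0.5 h. In that last comparison 7 of 8 lay below 0, against 49.5% of all tested genes. DKC1, GAR1, NHP2 and SNU13 had -0.31, -0.23, -0.14 and -0.10 at 24 h (adjusted p = 0.667, 0.819, 0.825 and 0.896). Of 12 assembly factors 0 passed with either tool, with medians of 0.094 at 0.5 h, -0.026 at 24 h and -0.11 in 24 h against 0.5 h. At an unadjusted edgeR p under 0.05 stood 2 at 24 h (8.1% of all tested genes) and 0 in the other comparisons. The 2 were RUVBL2, an ATPase of the R2TP complex, with -0.24 (edgeR adjusted p = 0.602), and NOLC1, a nucleolar chaperone, with -0.27 (adjusted p = 0.611). With the replicate block too, 0 of the core proteins and 0 of the assembly factors passed. TGS1 and SHQ1 had -0.13 and 0.13 at 24 h (adjusted p = 0.781 and 0.832).

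The last lists follow the known fates of GAS5 RNA. Of 14 factors of nonsense-mediated decay 13 were tested and 0 passed with either tool. The medians were -0.0093 at 0.5 h, -0.082 at 24 h and -0.068 in 24 h against 0.5 h. At an unadjusted edgeR p under 0.05 stood 0, 2 and 2, against 2.46%, 8.1% and 6.42% of all tested genes. EIF4A3, the helicase that anchors the exon junction complex, had 83 and 95 CPM in untreated cells, 126 and 101 CPM at 0.5 h and 206 and 115 CPM at 24 h. With the replicate block EIF4A3 was the one factor that passed, at 24 h (0.81, adjusted p = 0.000877) and in 24 h against 0.5 h (0.49, adjusted p = 0.047). By group alone its log2 fold change at 24 h was 0.85 ± 0.23 (adjusted p = 0.519), and its 24 h libraries lay further apart than the means of the 24 h and untreated groups. SMG5, SMG9 and MAGOH had -0.25, -0.23 and -0.29 at 24 h (adjusted p = 0.595, 0.621 and 0.635). Of 10 genes of the glucocorticoid receptor and its targets 8 were tested and 0 passed with either tool. The medians were 0.053 at 0.5 h, -0.039 at 24 h and 0.058 in 24 h against 0.5 h. At an unadjusted edgeR p under 0.05 stood 1, 1 and 0, against the same shares of all tested genes as above. SGK1, a kinase induced by glucocorticoids, had 158 and 124 CPM in untreated cells, 215 and 123 CPM at 0.5 h and 270 and 167 CPM at 24 h. Its log2 fold change at 24 h was 0.64 (adjusted p = 0.607). With the block SGK1 was the one gene of this list that passed, at 24 h (0.60, adjusted p = 0.00025) and in 24 h against 0.5 h (0.38, adjusted p = 0.0239). NR3C1, the receptor itself, PER1 and FKBP5 had 0.23, -0.27 and -0.081 at 24 h (adjusted p = 0.737, 0.819 and 0.886).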

How the data were processed

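PRO-seq libraries of SH-SY5Y cells, 2 per group, were compared. Per the submitters' processing notes, cutadapt 1.16.5, Bowtie2 2.4.2, SAMtools 1.13, featureCounts 2.0.1 and DESeq2 2.11.40.6 were used with the genome build hg38. The authors deposited raw counts per gene without normalization, and 2 tables of differential genes of which the adjusted p-value column was used, per the file headers. How the counting treated strand, feature type and overlaps, and with which annotation, is not given in the sources used here. Without a stated strand setting, reads of a host and of an oppositely read partner cannot be told apart.

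Symbols for the 67051 identifiers came from a table of names (60481) or GENCODE 29 (213), and 6357 had none. All 10 hosts matched. filterByExpr by group left 23133 genes, 9 of the hosts among them. Counts were scaled by TMM and fitted in edgeR 4.0.16 (R 4.3.3) over all 6 libraries by group (3 residual degrees of freedom), with a two-sided quasi-likelihood test, Benjamini-Hochberg adjustment over all tested genes and a threshold of 0.05. Each group has libraries numbered 1 and 2, and the labels do not say what a number stands for. Over 14633 genes of at least 10 CPM the differences between replicate 1 and replicate 2 correlated between the groups at 0.524, 0.509 and 0.556, so the pairing comes from the data, and a fit with the replicate number as a block is given beside each result whose call it changed. The common biological coefficient of variation was 0.113. The pipeline was tested on simulated data. DESeq2 1.42.0 tests, other scalings and filters, 2-group fits, a replicate term and leaving out each library were tried as alternatives. Assigned counts per library ran from 5983066 to 11707612, and reads carried no stated molecular identifiers. The intervals of the shares and the limits of genes without counts cover counting error only. The edgeR intervals of fold changes also take in the spread between libraries.

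The hosts and the gene lists were chosen with earlier results of these data known. From each list were named up to 4 tested genes with the smallest p at 24 h against untreated cells. Neighbours were genes that start within 1 kb of a host, and likeness was the root mean square difference of centred log2 CPM over genes of at least 10 CPM. Promoters of human chromosome 8 were not used here. Of the cell type markers, 2 are not reported here and were left out of the counts and sums.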

Additional observations from a re-analysis of the deposited data

How the results depend on the processing

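With 2 libraries a group, 3 residual degrees of freedom and 95% intervals that reached from -0.90 to 0.76 log2 units over the hosts and both exposure times, small changes could not be seen, and hosts that overlap other genes may have been counted only in part. In none of the alternatives except the replicate term did a host pass, in any comparison. The genes passing at 0.5 h, 17 in all, were 66 without a filter on low counts, 57 with the replicate term and 0 with mtDNA-encoded genes left out, and 9 to 15 when leaving out a library. The 16 genes passing at 24 h were 31 with DESeq2, 245 without a filter, 685 with the replicate term and 0 without mtDNA-encoded genes, and 8 to 13 when leaving out a library. In 24 h against 0.5 h the 0 genes became 73 without a filter and 412 with the replicate term. The cause was not tested, except that leaving out mtDNA-encoded genes removes them by construction.

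With the replicate number as a block, 0 hosts passed at 0.5 h, 1 at 24 h (SNHG5) and 1 in 24 h against 0.5 h (SNHG16), and the block changed no other call of a host.

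Of 351 recomputed fold changes of the hosts, 29 changed sign, 24 of them when leaving out a library. The other 5 were SNHG7 at 0.5 h, at -0.002 with upper-quartile factors and -0.0061 unscaled, and SNHG15 in 24 h against 0.5 h, at 0.028 with upper-quartile factors, 0.026 unscaled and 0.0033 over genes with a mean of at least 50 counts. Leaving out a library, the log2 fold changes at 0.5 h ran from -0.51 to 0.27 for SNHG1, -0.31 to 0.18 for SNHG5, -0.10 to 0.13 for SNHG7, -0.064 to 0.19 for SNHG8, -0.052 to 0.63 for SNHG12, -0.076 to 0.23 for SNHG15 and -0.11 to 0.24 for SNHG16. At 24 h they ran from -0.65 to 0.13 for SNHG1, -0.17 to 0.027 for SNHG6, -0.23 to 0.019 for SNHG8, -0.031 to 0.17 for SNHG12, -0.082 to 0.23 for SNHG15 and -0.54 to 0.012 for SNHG16. In 24 h against 0.5 h they ran from -0.038 to 0.086 for GAS5, -0.42 to 0.20 for SNHG1, -0.39 to -0.088 for SNHG5, -0.38 to -0.17 for SNHG6, 0.048 to 0.27 for SNHG7, -0.30 to -0.033 for SNHG8, -0.56 to 0.13 for SNHG12, -0.17 to 0.16 for SNHG15 and -0.63 to -0.066 for SNHG16. GAS5 stayed above 0 against untreated cells in every such fit, at 0.19 to 0.24 at 0.5 h and 0.18 to 0.30 at 24 h, and SNHG5 stayed below 0 at 24 h, at -0.56 to -0.066. Without GAS5, the share of counts on the hosts was 0.124% at 0.5 h, 0.115% at 24 h and 0.123% in untreated cells.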
